A study of Oryza sativa Japonica Group with 5 samples.

Results

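The short-arm ends of rice chromosomes 11 and 12 carry copies of the same ancestral stretch of genes, and the values of these copies were compared in leaves of wild type and of the mutant pls4. The members are all loci with identifiers from Os11g0100000 to Os11g0150000 (349 loci) and from Os12g0100000 to Os12g0150000 (367 loci), 716 of the 36475 loci listed in each library. Total RNA of Oryza sativa Japonica Group leaf was sequenced in 5 libraries, 3 of wild type and 2 of pls4. The labels call the cell type mesophyll and give "knockdown" as the treatment of the mutant and "Non knockdown" as that of wild type; the series title links pls4 to sheath blight, a disease caused by a fungus. The sources used here give neither the altered gene, nor the age of the plants, nor whether libraries came from separate plants; p-values therefore measure only how far these libraries spread, which may include technical variation.

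As background, the distal parts of chromosomes 11 and 12 are among the best known segmental duplications of the rice genome. Many of their genes lie in the same order on both chromosomes, and exchange of sequence between them (gene conversion) has kept a number of the copies very alike. A read from such a stretch can align equally well to both copies. The sources used here do not give how reads that align to more than 1 place were counted, so the value of a single copy of a near-identical pair is uncertain, while the sum over both copies does not change when reads move between copies of equal length.

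Levels are FPKM (fragments scaled by transcript length and by the mapped fragments of the library). The deposited tables hold identifiers without gene names. Symbols are given for 44 members, from published pairs of symbol and identifier recalled from the rice literature; each symbol is in the RefSeq table (assembly ASM3414082v1) on the same chromosome and in the same order, at a relative gene order that differed by at most 0.0299. This order check is coarse and cannot tell neighbouring genes apart, so each symbol rests on the recalled pair. Members without a symbol are given by identifier only.

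Across the whole series, 18393 to 18538 loci per library reached an FPKM of 1, and the values of a library summed to between 736527 and 758853; the depth in reads is unknown. Marker genes were taken by identifiers recalled from the literature, which could not be checked against the files. The summed FPKM of 3 mesophyll genes was high in every library; it ranged from 21100 to 27900 in wild type and from 9820 to 12300 in pls4, that of 3 vascular genes from 1.77 to 3.07 and from 9.2 to 19.0, and that of 2 genes of dividing cells from 15.4 to 16.7 and from 12.2 to 13.1. Of the latter, MCM2 alone was at 1.32, 1.06 and 1.41 in wild type and 0.19 and 0.08 in pls4, while PCNA made up most of the sum. The 1 root marker ranged from 11.3 to 14.6 and from 16.6 to 20.1, and the 1 seed marker from 3.6 to 4.88 and from 3.89 to 4.79. The part of these marker differences in the results below was not tested, and in leaf RNA fewer cells of a type and less RNA per cell cannot be told apart.

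More members of the chromosome 11 end, and fewer members of the chromosome 12 end, were detected in pls4 than in wild type. At the chromosome 11 end, 167, 165 and 169 of 349 members reached an FPKM of 1 in the wild type libraries, and 176 and 175 did in the pls4 libraries. At the chromosome 12 end, 183, 186 and 176 of 367 members did so in wild type, and 171 and 175 in pls4. In both comparisons the genotypes did not overlap, and the ends moved in opposite directions, while over all loci the share at an FPKM of 1 stayed between 50.4% and 50.8%. A value of 0 in every library was listed for 60 members on chromosome 11 and 45 on chromosome 12.

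The summed level of the ends, without rescaling of the libraries, moved the same way. The members of the chromosome 11 end summed to 5575, 5166 and 5125 FPKM in wild type and to 6037 and 6042 in pls4. Those of the chromosome 12 end summed to 7872, 7763 and 7690 FPKM in wild type and to 6987 and 6715 in pls4. The 5 highest members of a library held 50.7% to 55.9% of the sum on chromosome 11 and 59.1% to 67.7% on chromosome 12. Whether these differences in sum hold under another scaling was not tested. The fall on chromosome 12 rests on a single gene, LTP (Os12g0115100, described below): without it, the end summed to 5060, 5303 and 5164 FPKM in wild type and to 6515 and 6250 in pls4, a rise. This leave-one-gene-out sum was chosen after seeing the data. It too depends on a few high members, picked here by their values. In mean FPKM, Os12g0115150 rose from 55.3 to 616.9, Os12g0115500 from 617.6 to 1284 and Os12g0106000 from 911.1 to 1357. Os12g0115300 fell from 664.3 to 200.4. The sum thus does not show a rise of most members. The median change of the tested members of this end (log2 scale, pls4 minus wild type) was 0.035. Among tested members, the median wild type level was 7.87 FPKM on chromosome 11 and 6.06 on chromosome 12, against 8.35 over all tested loci; in pls4 the medians were 10, 5.87 and 9.14.

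Changes were tested with limma on log2(FPKM + 1) over all 19637 loci that reached an FPKM of 1 in 2 or more libraries, and a call required a Benjamini-Hochberg adjusted p under 0.05. The filter passed 177 members on chromosome 11 and 194 on chromosome 12, so 371 of 716 members were tested. At the chromosome 11 end 68 members rose (38.4%) and 10 fell (5.65%), which leaves 99 without a call. At the chromosome 12 end 51 rose (26.3%) and 50 fell (25.8%), which leaves 93 without a call. Over all tested loci 33.4% rose and 18.5% fell, 52.0% in all. The libraries of pls4 lay above all of wild type at 90 of the 177 tested members of chromosome 11 and below all of them at 20. On chromosome 12 these counts were 65 and 67 of 194. Over all tested loci the shares were 45.4% above and 24.5% below, 69.9% in all. The ends were not compared by a test, because neighbouring genes are not replicates. Without pls4 replicate 2, where the 1 pls4 library left is assumed to vary like wild type, the counts were 44 higher (26.2%) and 6 lower (3.57%) on chromosome 11, and 34 higher (18.5%) and 45 lower (24.5%) on chromosome 12; over all loci 21.2% rose and 15.4% fell, 36.6% in all. With the replicate number as a block the chromosome 11 end had 45 higher (25.4%) and 7 lower (3.95%), against 22.4% and 14.7% over all loci, 37.1% in all.

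The split between higher and lower calls depends on how libraries are scaled. With median ratio scaling of the libraries, 41 members rose (23.2%) and 18 fell (10.2%) on chromosome 11. On chromosome 12, 34 rose (17.4%) and 70 fell (35.9%), while over all loci 21.6% rose and 24.7% fell. After quantile normalization the counts were 46 (26.0%) and 16 (9.04%) on chromosome 11 and 41 (21.1%) and 61 (31.4%) on chromosome 12. The shares over all loci were then 24.4% and 21.7%. Median ratio scaling moved the median change of all tested loci from 0.151 to -0.003. Relative to the median of all loci, the median change of the chromosome 11 end was 0.070 higher without scaling and 0.085 higher with it, and that of the chromosome 12 end was 0.117 lower without scaling (-0.117) and -0.092 with it. Chromosome 11 thus had the higher median of the ends under both.

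**Figure D1:**
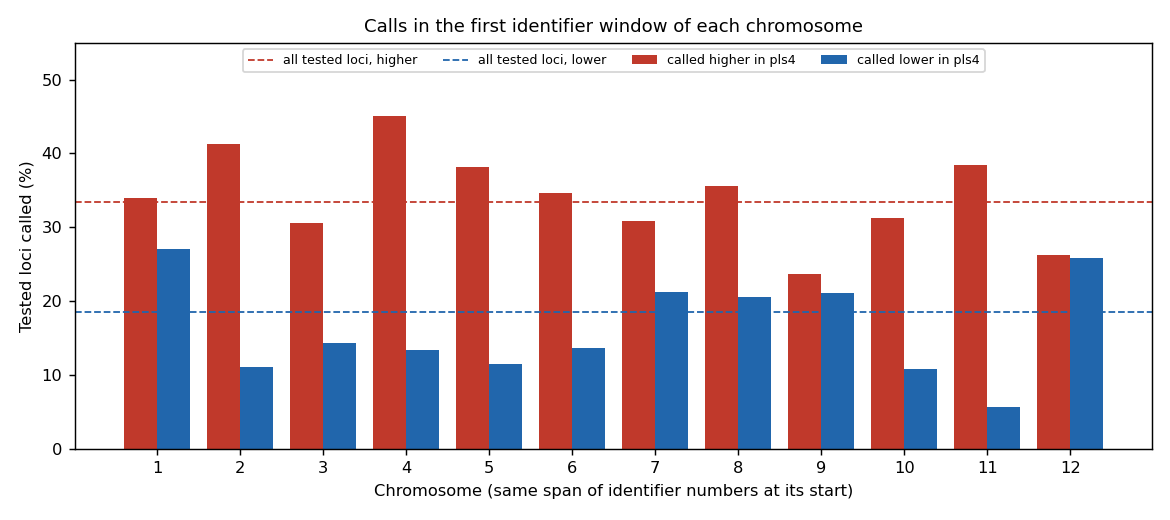
Share of tested loci called higher (red) or lower (blue) in pls4 (y axis, percent) in the first identifier window of each chromosome (x axis), with dashed lines at the shares over all tested loci. Chromosome 11 has the lowest share of lower calls, 5.65%, and chromosome 12 a share of 25.8%, next to 27.0% on chromosome 1.

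The same span of identifier numbers on chromosomes 1 to 10 gives a scale for these shares. In these 10 windows 23.7% to 45.1% of tested loci rose and 10.8% to 27.0% fell. The share of higher calls lay within that range at both ends. The share of lower calls on chromosome 12 lay within it too, whereas the 5.65% on chromosome 11 lay below all 10. Outside the ends, 31.8% of 831 tested loci of chromosome 11 fell and 30.1% of 855 of chromosome 12 did, so the chromosome 11 end had a smaller share of lower calls than the rest of its own chromosome, as a description.

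Between the ends, large falls were listed almost only on that of chromosome 12. A called change of at least 1 on the log2 scale was upward at 19 members of chromosome 11 and 9 of chromosome 12, and downward at 1 member of chromosome 11 and 31 of chromosome 12. As shares of tested members these were 10.7% and 4.64% upward, against 7.11% over all loci, and 0.565% and 16.0% downward, against 7.21% over all loci. In the windows of chromosomes 1 to 10 the upward share was 2.29% to 14.6% and the downward share 1.08% to 14.5%. The chromosome 12 end lay just above this downward range, near chromosomes 1 (14.4%) and 9 (14.5%), and the chromosome 11 end below it. Outside the ends, such falls were called at 148 of 831 tested loci of chromosome 11 (17.8%) and 128 of 855 of chromosome 12. In this share the chromosome 12 end was thus close to the rest of both chromosomes. The 1 such fall at the chromosome 11 end was that of Os11g0116400. This locus was at 19.9, 35.1 and 30.2 FPKM in wild type and 16.1 and 10.9 in pls4. Its change was -1.003 ± 0.25 (standard error), and it did not pass the test once wild type replicate 3 or pls4 replicate 2 was left out.

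**Figure D2:**
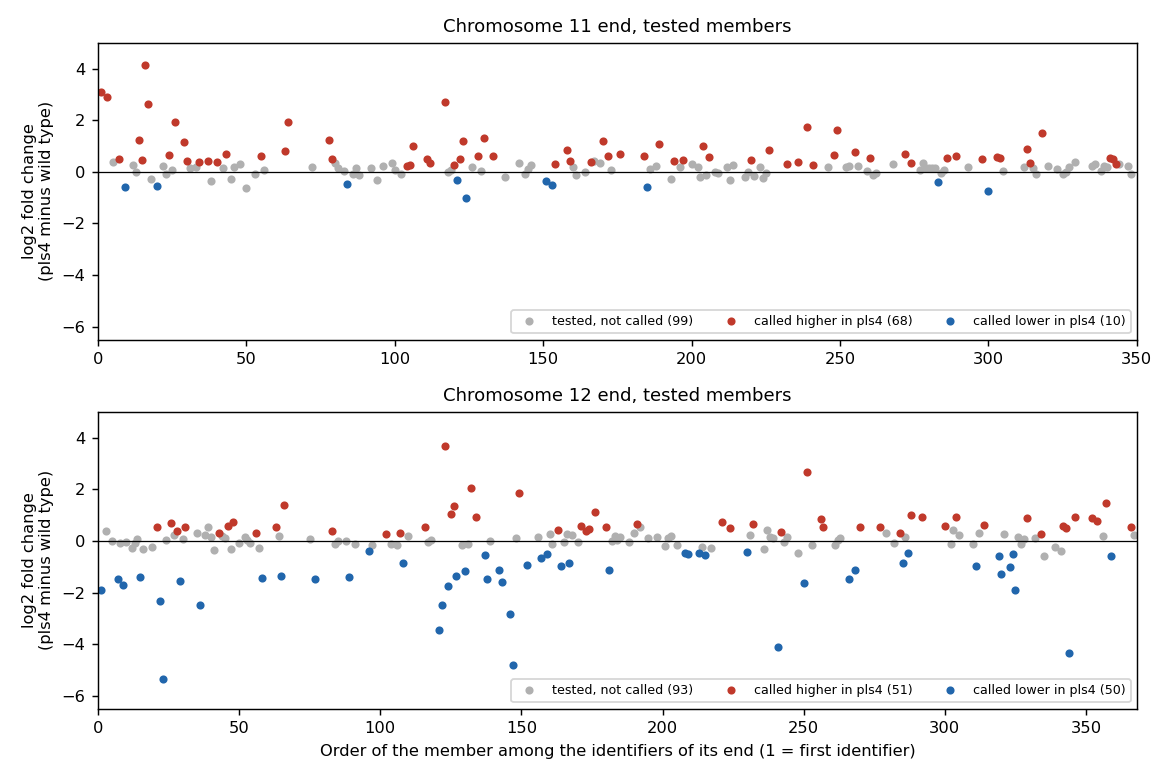
Log2 fold change, pls4 minus wild type (y axis), of the tested members in the order of their identifiers (x axis, 1 is the first identifier of the end), for chromosome 11 (top) and chromosome 12 (bottom); red points were called higher, blue lower and grey not called. A fall of at least 1 was called at 1 member of chromosome 11 and at 31 members of chromosome 12.

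Along the identifiers, each end was read in 5 equal steps. On chromosome 11 the first step (Os11g0100000 to Os11g0109999) had the highest share of higher calls, 20 of 41 tested members (48.8%) with 2 lower, and the fourth had none lower of 37. On chromosome 12 the second step (Os12g0110000 to Os12g0119999) had the highest share of lower calls, 16 of 40 (40.0%), and a median change of -0.125. In every step of chromosome 12 between 18.9% and 40.0% of tested members fell. In every step of chromosome 11 between 0% and 11.5% did, so the contrast was not confined to 1 stretch.

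The largest called changes on chromosome 11 were all rises, and 4 of the 8 lay close to the start of the list. ATG8D (Os11g0100100), a ubiquitin-like protein of autophagosome membranes, was at 0, 0 and 0.06 FPKM in wild type and at 6.77 and 8.50 in pls4. Os11g0100200, separated from it in the files by 1 locus listed at 0 throughout, was at 0, 0 and 0.17 in wild type and 6.14 and 7.49 in pls4. Both were at or near 0 in all wild type libraries and clearly above it in both pls4 libraries. Os11g0103000 was at 0.06, 0.05 and 0.12 FPKM in wild type and 18.3 and 17.7 in pls4 (limma, log2 fold change 4.14 ± 0.11, adjusted p = 2.94e-07). Its neighbour Os11g0103050 was at 0.19, 0.34 and 0.30 in wild type and 7.87 and 5.95 in pls4 (2.62 ± 0.15). The loci beside them did not show this step: Os11g0102900 was at 7.11, 7.15 and 7.23 in wild type and 10.9 and 9.31 in pls4, and Os11g0103100 was at 4.29, 4.34 and 3.93 in wild type and 3.15 and 3.43 in pls4 (both chosen after their values were seen). The 4 rising loci passed the filter only through the pls4 libraries. The rule that named these 4 required a call and no overlap, so the adjusted p of Os11g0103000 adds no further support.

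The other 4 of the 8 were expressed in wild type too. Os11g0115350 was at 4.77, 3.32 and 3.24 FPKM in wild type and 31.0 and 28.4 in pls4 (log2 fold change 2.70 ± 0.15). Os11g0108932 was at 2.66, 3.66 and 3.27 in wild type and 14.7 and 14.9 in pls4 (1.92 ± 0.13). CIPK33 (Os11g0134300) is described with its copy below. Os11g0135900 was at 1.88, 2.56 and 1.94 FPKM in wild type and 8.15 and 8.82 in pls4 (1.61 ± 0.13). In each of these members both pls4 libraries lay above all wild type libraries, as was required by the rule that named them.

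On chromosome 12, 6 of the 8 largest called changes were falls, and 5 of them ended at or next to a listed value of 0. Os12g0103580 was at 40.9, 41.3 and 38.2 FPKM in wild type and listed at 0 in both pls4 libraries. Os12g0118400 was at 27.5, 28.2 and 26.9 in wild type and at 0.03 and 0 in pls4. Os12g0145566 was at 18.4, 18.9 and 20.6 in wild type and listed at 0 in both pls4 libraries. The wild type libraries were close to one another at all 3 loci. Os12g0132000 was at 17.6, 15.3 and 16.3 FPKM in wild type and listed at 0 in both pls4 libraries. LTP2-B (Os12g0115000), a lipid transfer protein gene, was at 10.2, 11.7 and 7.96 in wild type and listed at 0 in both pls4 libraries. These 5 are the members present in wild type alone (a mean FPKM of at least 5 in 1 genotype and at most 0.1 in every library of the other), and they are spread over the end rather than adjacent. No member of the chromosome 12 end was present in pls4 alone, while on chromosome 11 ATG8D was present in pls4 alone and no member in wild type alone. Among all loci that reach this mean in a genotype, 1.77% were present only in wild type and 0.580% only in pls4. The windows of chromosomes 1 to 10 each held 0 to 7 loci present in wild type alone and 0 to 3 in pls4 alone. The counts of both ends lay within these ranges. Of loci close to the limit, Os11g0103000 missed it with 0.12 FPKM in 1 wild type library, and Os12g0103500 missed it with a wild type mean of 4.05 FPKM and 0 in both pls4 libraries.

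The sixth fall was that of Os12g0118200, at 11.8, 11.4 and 12.2 FPKM in wild type and 0.73 and 0.88 in pls4 (log2 fold change -2.83 ± 0.10). The other two of the 8 were rises. Os12g0133100 was at 9.99, 10.5 and 9.56 in wild type and 70.7 and 66.9 in pls4 (2.66 ± 0.08). Os12g0115150 was at 22.9, 49.2 and 93.9 in wild type and 618 and 616 in pls4 (3.67 ± 0.49); its wild type libraries differed widely among themselves, but all lay far below pls4.

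**Figure D3:**
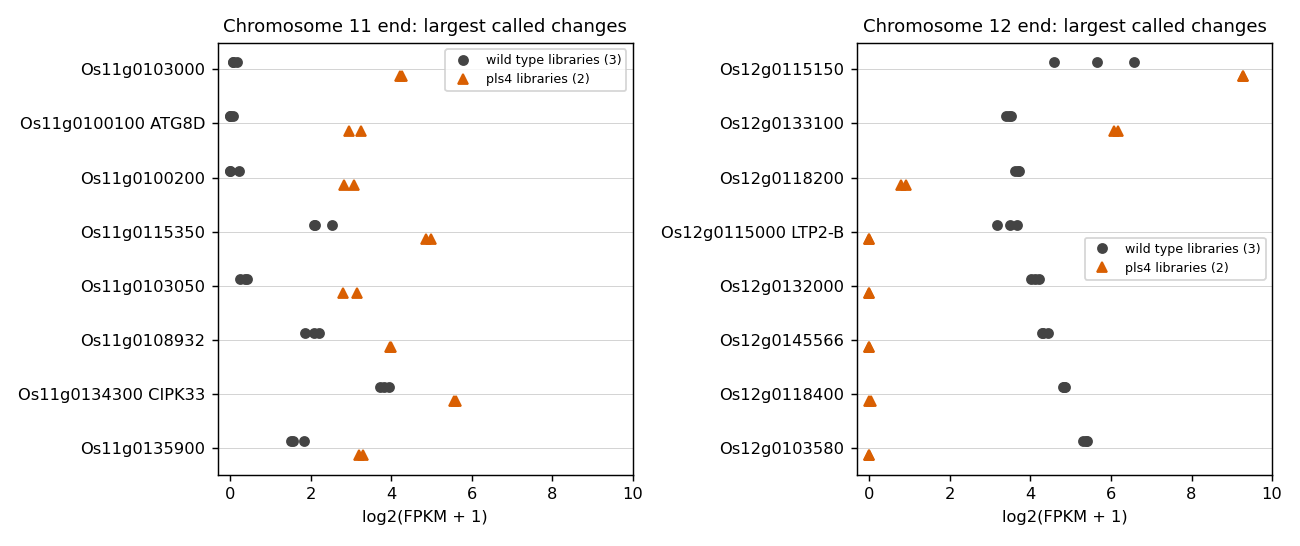
Level as log2(FPKM + 1) (x axis) of the 8 members with the largest called changes in each end (y axis), in the 3 wild type libraries (grey circles) and the 2 pls4 libraries (orange triangles). All 8 on the left are rises; on the right 6 are falls, and 5 of them sit at or next to 0 in pls4.

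The most abundant member of all was LTP (Os12g0115100), a nonspecific lipid transfer protein; such proteins are small, secreted, bind lipids and are abundant at plant surfaces. It ranked 30 among all loci by wild type mean. It was at 2812, 2461 and 2526 FPKM in wild type and 472 and 465 in pls4 (limma, log2 fold change -2.47 ± 0.10, adjusted p = 2.41e-06), so both pls4 libraries lay far below every wild type library. Its neighbours on chromosome 12, of which those not named by the rule were chosen after their values were seen, went both ways. Os12g0115300 fell from 686, 646 and 661 to 186 and 214 FPKM (-1.73 ± 0.09). Os12g0115500 rose from 636, 583 and 634 to 1327 and 1240 (1.05 ± 0.09). Os12g0115700 rose from 6.17, 12.7 and 5.60 to 25.4 and 17.8 (1.36 ± 0.32). Together with LTP2-B and Os12g0115150 above, the 6 expressed loci from Os12g0115000 to Os12g0115700 thus gave 3 falls and 3 rises.

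The stretch on chromosome 11 that holds the related gene LTP2-A (Os11g0115400) also went both ways; the stretches were not compared by a test, and Os11g0115375, Os11g0115800, Os11g0116200, Os11g0116300 and Os11g0116400 were chosen after their values were seen. LTP2-A was at 807, 520 and 526 FPKM in wild type and 607 and 653 in pls4 (0.06 ± 0.19), and wild type replicate 1 stood above all other libraries; without that library the change was 0.27 and was called higher. Os11g0116000 was at 749, 779 and 775 in wild type and 653 and 594 in pls4 (-0.30 ± 0.09); it did not pass with the replicate block, with no filter, after quantile normalization, or when wild type replicate 2, wild type replicate 3 or pls4 replicate 2 was left out. Os11g0115800 was at 18.3, 20.1 and 17.4 FPKM in wild type and 23.2 and 22.1 in pls4 (0.27 ± 0.09), and its call failed in 7 of the 12 alternatives. Os11g0116200 rose from 113, 99.2 and 112 to 153 and 155 FPKM (0.50 ± 0.09). Os11g0116300 rose from 20.9, 31.4 and 19.7 to 59.7 and 51.6 (1.21 ± 0.19), and Os11g0115375, at 116, 72.6 and 98.0 in wild type and 88.4 and 100 in pls4, did not pass the test. Os11g0115350 and Os11g0116400, given above, hold the largest rise (2.70) and the largest fall (-1.003) of this stretch.

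**Figure D4:**
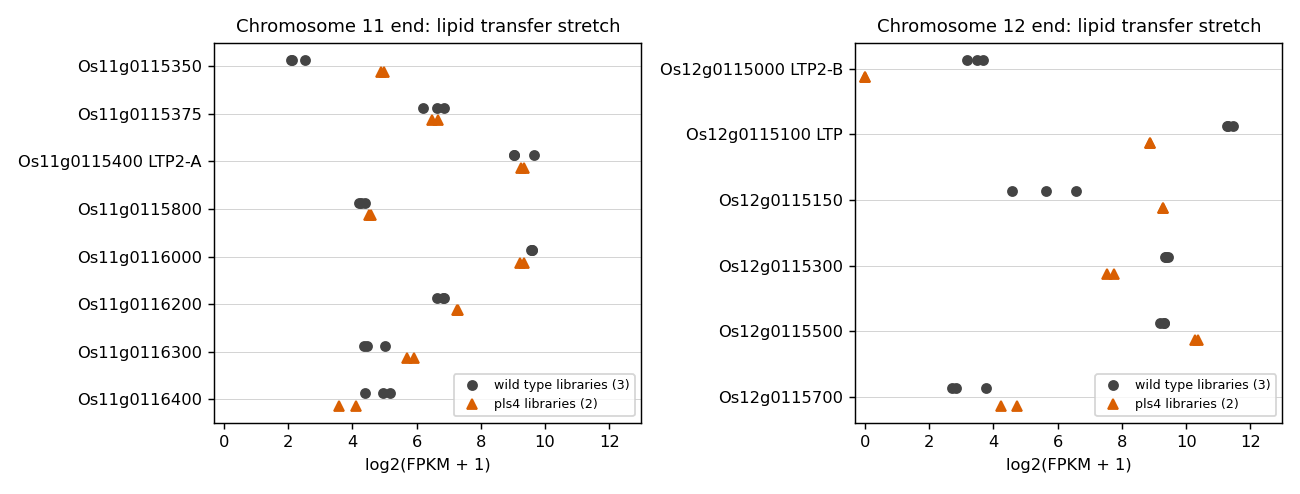
Level as log2(FPKM + 1) (x axis) of the expressed loci in the stretches that hold lipid transfer protein genes (y axis, in identifier order), on chromosome 11 (left) and chromosome 12 (right), in 3 wild type libraries (grey circles) and 2 pls4 libraries (orange triangles). LTP and Os12g0115300 fall and Os12g0115150 and Os12g0115500 rise on the right, whereas LTP2-A overlaps between genotypes on the left.

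The remaining members with the highest wild type means on chromosome 11 changed little. Os11g0147800 was at 1072, 874 and 925 FPKM in wild type and 1062 and 1162 in pls4 (0.22 ± 0.12), and was called higher after quantile normalization or without wild type replicate 1. Os11g0106700 was at 363, 547 and 447 in wild type and 588 and 512 in pls4 (0.30 ± 0.17), and Os11g0127900 was at 126, 149 and 153 in wild type and 148 and 161 in pls4 (0.12 ± 0.11). The groups overlapped at all 3 loci. On chromosome 12, Os12g0106000 was at 698, 1133 and 903 in wild type and 1473 and 1240 in pls4 (0.60 ± 0.20); it did not pass with median ratio scaling, with no filter, with the replicate block, or when wild type replicate 1, wild type replicate 3 or pls4 replicate 1 was left out. Os12g0145100 was at 497, 423 and 453 in wild type and 375 and 410 in pls4 (-0.22 ± 0.10), and was called lower with median ratio scaling.

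Pairs of copies were compared within each library, as log2(FPKM + 1) of the chromosome 11 copy minus that of the chromosome 12 copy. Of 23 pairs of identifiers, 13 had both copies tested, and all 13 carry symbols. The change of the chromosome 11 copy was above that of the chromosome 12 copy in 9 pairs and below it in 4. Only CIPK15 and CIPK14, LTP2-A and LTP, RR9 and RR10, and OsPK1 and OsPK2 were listed as pairs at the start. Among these the chromosome 11 change was above in all but the pyruvate kinases. The other tested pairs were added later, and no sequences were compared to pair the copies. In 12 of the 13 pairs the libraries of the genotypes did not overlap in this difference. The share among other pairs of loci was not computed. Of all tested loci taken singly, 69.9% did not overlap, so the count is not read as a trait of these pairs. With 3 against 2 libraries the exact permutation test (two-sided) cannot give a p below 0.2, which those 12 pairs reached, so no pair can pass a threshold of 0.05. LTP2-A enters 2 of the 13 pairs.

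**Figure D5:**
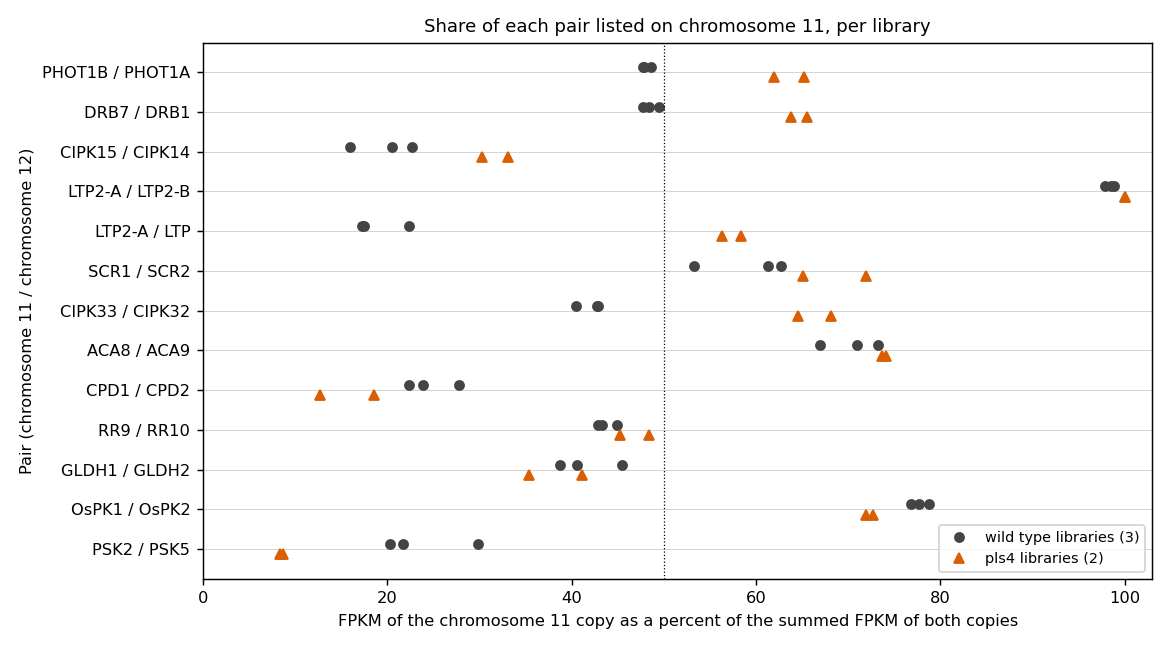
FPKM of the chromosome 11 copy as a percent of the summed FPKM of both copies (x axis) for the 13 pairs with both copies tested (y axis), in 3 wild type libraries (grey circles) and 2 pls4 libraries (orange triangles); the dotted line marks equal levels. Shares rise in pls4 for 9 pairs, among them PHOT1B and PHOT1A, from 47.7% to 48.6% in wild type to 61.9% and 65.2% in pls4, and fall clearly for PSK2 and PSK5.

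Phototropins are the blue-light receptors that steer phototropism, chloroplast movement and stomatal opening. PHOT1B (Os11g0102200) was at 36.6, 25.4 and 28.7 FPKM in wild type and 17.5 and 21.5 in pls4 (limma, log2 fold change -0.60 ± 0.16, adjusted p = 0.0183). PHOT1B did not pass once wild type replicate 3 or pls4 replicate 1 was left out. PHOT1A (Os12g0101800) was at 38.7, 27.9 and 31.4 in wild type and 10.8 and 11.5 in pls4 (limma, -1.46 ± 0.14, adjusted p = 0.000155). In wild type the copies rose and fell together from library to library at nearly equal levels, and in pls4 both were lower, with PHOT1A the lower of them. The difference of their changes was 0.86 ± 0.08, and the sum of both copies went from 62.9 ± 11.3 FPKM (SD, n = 3) to 30.6 ± 3.4 (SD, n = 2).

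CIPK proteins are kinases that act with calcium sensors of the CBL family. CIPK33 (Os11g0134300) was at 14.4, 13.3 and 12.3 FPKM in wild type and 46.1 and 47.6 in pls4 (1.74 ± 0.09). Its copy CIPK32 (Os12g0132200) was at 19.4, 17.7 and 18.0 in wild type and 25.2 and 22.3 in pls4 (0.35 ± 0.09). CIPK32 did not pass under either scaling, with the replicate block, or when wild type replicate 2, wild type replicate 3 or pls4 replicate 1 was left out. The order of the copies thus turned: CIPK32 was the higher in all wild type libraries and CIPK33 in both pls4 libraries, and their sum went from 31.7 ± 1.9 to 70.6 ± 1.0 FPKM. CIPK15 (Os11g0113700), known in rice from seedling growth under flooding, was at 3.99, 6.04 and 5.41 FPKM in wild type and 11.6 and 10.9 in pls4 (1.01 ± 0.16). CIPK14 (Os12g0113500) was at 21.0, 20.5 and 20.9 in wild type and 26.7 and 22.0 in pls4 (0.21 ± 0.10); with 1 pls4 library left the change was 0.07 without pls4 replicate 1 and 0.34, a call, without pls4 replicate 2. CIPK14 was the higher copy in all 5 libraries, and the chromosome 11 copy provided 16.0% to 22.7% of the sum in wild type and 30.3% and 33.1% in pls4.

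DRB7 (Os11g0109900) and DRB1 (Os12g0109900) encode double-stranded RNA-binding proteins. DRB7 was at 5.84, 4.75 and 4.85 FPKM in wild type and 13.4 in both pls4 libraries (1.23 ± 0.11). DRB1 was at 5.95, 5.2 and 5.18 in wild type and 7.58 and 7.04 in pls4 (0.37 ± 0.11). DRB1 did not pass under either scaling, with the replicate block, or when wild type replicate 2, wild type replicate 3 or either pls4 library was left out. As with the phototropins, wild type levels were nearly equal and the pls4 levels were not; the chromosome 11 copy held 47.7% to 49.5% of the sum in wild type and 63.8% and 65.5% in pls4. SCR1 (Os11g0124300) and SCR2 (Os12g0122000), GRAS factors of the SCARECROW type that act in cell patterning, were low. SCR1 was at 1.95, 2.01 and 1.71 FPKM in wild type and 2.24 and 3.22 in pls4 (0.36 ± 0.15); with 1 pls4 library left the change was 0.55, a call, without pls4 replicate 1 and 0.17 without pls4 replicate 2. SCR2 was at 1.16, 1.27 and 1.5 in wild type and 1.20 and 1.26 in pls4 (-0.05 ± 0.12).

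The lipid transfer genes form the pairs with the largest difference. The share of LTP2-A in its sum with LTP went from 22.3%, 17.5% and 17.2% in the wild type libraries to 56.3% and 58.4% in pls4, a difference of changes of 2.53 ± 0.20. The sum itself fell from 3217 ± 350 to 1098 ± 27 FPKM. Beside LTP2-B, LTP2-A held 97.8% to 98.8% of the sum in wild type and all of it in pls4.

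Hormone genes of the ends went different ways. RR9 (Os11g0143300) and RR10 (Os12g0139400) are type-A response regulators, which are induced by cytokinin and dampen its signal. RR9 rose from 56.2, 63.6 and 54.6 to 97.4 and 79.3 FPKM (0.59 ± 0.11), and RR10 was at 73.5, 84.9 and 67.2 in wild type and 118 and 84.7 in pls4 (limma, 0.41 ± 0.16, adjusted p = 0.0622). With 1 pls4 library left, the RR10 change was 0.18 without pls4 replicate 1 and 0.65, a call, without pls4 replicate 2. The difference of their changes was 0.18 ± 0.08 (0.27 without pls4 replicate 1 and 0.09 without pls4 replicate 2), and pls4 replicate 1 was the highest library for both. CPD1 (Os11g0143200) and CPD2 (Os12g0139300) are cytochromes P450 of brassinosteroid synthesis. CPD1 fell from 3.65, 5.14 and 3.76 to 1.96 and 2.23 FPKM (-0.73 ± 0.15), whereas CPD2 was at 11.7, 13.3 and 13.1 in wild type and 13.4 and 9.77 in pls4 (-0.13 ± 0.14). The difference of changes, -0.60 ± 0.24, was -0.33 without pls4 replicate 1 and -0.88 without pls4 replicate 2.

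Genes of phytosulfokine, a growth-promoting peptide hormone, differed most in the direction opposite to the majority. PSK2 (Os11g0149400) was at 1.76, 1.99 and 1.91 FPKM in wild type and 1.76 and 1.74 in pls4 (-0.07 ± 0.11), while PSK5 (Os12g0147800) rose from 6.93, 4.68 and 6.88 to 19.3 and 18.4 (1.49 ± 0.16). PSK5 was the higher copy in every library. The difference of changes was -1.56 ± 0.24, and the chromosome 11 share fell from between 20.3% and 29.8% to 8.36% and 8.66%.

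Among metabolic genes, both pyruvate kinases, which catalyse the last step of glycolysis, rose. OsPK1 (Os11g0148500) rose from 69.4, 65.4 and 65.5 to 98.2 and 95.4 FPKM (0.53 ± 0.08), and OsPK2 (Os12g0145700) from 18.7, 19.8 and 18.8 to 36.9 and 37.2 (0.92 ± 0.08). Their sum went from 85.9 ± 2.0 to 133.9 ± 1.8 FPKM, and OsPK1 was the higher copy in all 5 libraries. GLDH1 (Os11g0143500) and GLDH2 (Os12g0139600) encode the enzyme of the last step of ascorbate synthesis. GLDH1 was at 6.46, 7.67 and 6.82 in wild type and 6.80 and 7.68 in pls4 (0.05 ± 0.11), and GLDH2 at 10.2, 9.18 and 9.99 in wild type and 12.4 and 11.01 in pls4 (0.24 ± 0.10). GLDH was the 1 pair of the 13 in which the genotypes overlapped in the difference of copies (exact permutation test, p = 0.6). The calcium pumps ACA8 (Os11g0140400) and ACA9 (Os12g0136900) did not pass the test either. ACA8 was at 26.1, 22.5 and 21.3 FPKM in wild type and 27.2 and 24.3 in pls4, and ACA9 at 12.9, 8.26 and 8.74 in wild type and 9.70 and 8.50 in pls4.

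In the other 10 pairs at least 1 copy was under the filter, and in 8 of them both were. MIF1 (Os11g0128300), a mini zinc finger protein, rose from 1.58, 1.63 and 1.76 to 4.26 and 4.92 FPKM (1.07 ± 0.12). Its copy MIF2 (Os12g0124700) was listed at 0 in 4 libraries and at 0.06 in pls4 replicate 2. CML2 (Os11g0134400) and CML3 (Os12g0132300), calmodulin-like proteins, were at 0.39 to 0.87 and 0.60 to 1.34 FPKM. No value above 0.12 was listed for NH5.1 (Os11g0141900) or NH5.2 (Os12g0138500), and none above 0.41 for the NAC factors NAC45 (Os11g0127600) and NAC077 (Os12g0123800). Outside the listed pairs, D53-L (Os12g0104300), a relative of the strigolactone signalling repressor D53, rose from 22.9, 22.0 and 24.2 to 39.8 and 36.2 FPKM (0.70 ± 0.09). Os11g0104300, at the same identifier number on chromosome 11 and chosen after its values were seen, rose from 20.7, 20.5 and 23.4 to 53.8 and 45.2 FPKM (limma, 1.16 ± 0.11, adjusted p = 0.000138). Both rose, and no wild type library overlapped with pls4 at either locus. APY3 (Os12g0123500), an apyrase, rose from 7.72, 9.18 and 7.07 to 15.6 and 22.4 (1.14 ± 0.17), and the cytochrome P450 gene CYP714C2 (Os12g0119000) fell from 1.97, 2.61 and 1.70 to 0.72 and 0.49 (-0.94 ± 0.16). CYP714C1 (Os12g0118900), MAN7 (Os11g0118200), LAC23 (Os12g0108000) and DMC1 (Os12g0143800) were under the filter.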

How the data were processed

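Leaf RNA libraries of wild type (n = 3) and pls4 (n = 2) were compared. The deposited values are FPKM, 1 file per library, per the file headers. TopHat2 version 2.1.1 and genome build IRGSP-1.0 are named in the submitters' processing notes; the sources used here do not give the counting tool, the annotation, the handling of reads with several alignments or the depth. No promoter or protein sequence was used. Members were chosen by identifier. The members, lists and tests were chosen with earlier results of these data known, and only 13 of the 44 symbols were listed at the start, the others being added later by name from the RefSeq table.

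Genotype was the only term of a linear model of log2(FPKM + 1) with a trended variance (limma 3.58.1, R 4.3.3), over all loci reaching an FPKM of 1 in 2 or more libraries; p-values were Benjamini-Hochberg adjusted over all of them. Changes are given as pls4 minus wild type on that log2 scale, which understates changes of low genes; ± is the standard error there and the SD beside an FPKM. The fit was tested on simulated data. Pairs were compared by an exact permutation test over libraries in scipy 1.17.1. Named members were the 8 largest called changes without overlap and with a mean FPKM of at least 5, and the 5 highest wild type means, of each end. Members present in 1 genotype alone were named too, as were pairs of copies, some listed at the start and others added later. At most 0.276% of values of at least 5 FPKM were equal between any 2 libraries. Alternatives were other pseudocounts, filters and scalings, a replicate block, and leaving out each library.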

Additional observations from a re-analysis of the deposited data

How the results depend on the processing

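Of 44 named members that were called, 37 kept call and direction under every alternative in which they were tested, and the 7 others are given with their results. Many of the 44 were named for large called changes or after their values were seen, which favours calls that hold. The count therefore does not describe the members that were not named. Of the 44, 36 were tested under all 12 alternatives and the others under 10 or 11. The sign turned under an alternative for 0 of the 44, and for 9 of the 17 named members without a call, among them LTP2-A, ACA8, ACA9, GLDH1, SCR2 and CPD2. Leaving out a pls4 library leaves 1, which is then assumed to vary like wild type. On chromosome 11, higher calls numbered 41 with median ratio scaling and 45 with the replicate block (7 lower there, and 35 higher and 43 lower on chromosome 12), and lower calls 18 with median ratio scaling and 16 after quantile normalization; leaving out 1 library gave 44 to 68 higher and 6 to 11 lower, while over all loci 21.2% to 35.0% rose and 15.4% to 17.7% fell. On chromosome 12, lower calls numbered 30 of 121 tested members when loci had to reach an FPKM of 5 in 2 or more libraries. That share of 24.8% was close to the 25.8% under the filter of an FPKM of 1, and 18.9% of all loci fell under the stricter filter. Leaving out 1 wild type library gave 38 to 54 higher and 43 to 48 lower on chromosome 12. The median change on chromosome 11 was 0.222, and 0.109 with no filter, 0.082 with median ratio scaling and 0.142 after quantile normalization (0.211 to 0.264 without 1 library). On chromosome 12 it was 0.035, and 0.141 with the FPKM minimum of 5, -0.096 with median ratio scaling and -0.041 after quantile normalization (0.001 to 0.081 without 1 library). The cause of these shifts was not tested. At an FPKM of 5, 108.0 members were detected on chromosome 11 in wild type on average, and 111.7 in wild type and 102.0 in pls4 on chromosome 12. With presence at a mean FPKM of 10, 0 members of chromosome 11 and 4 of chromosome 12 were present in 1 genotype alone. Without LTP the summed FPKM of the chromosome 12 end was 1207 higher in pls4 than in wild type, a sum that depends on a few other high members. The chromosome 11 change was above the chromosome 12 change in 9 of 13 pairs under every alternative run. Replicate numbers 1 and 2 occur in both genotypes, and the deviations of same-numbered libraries correlated at -0.095 and -0.138. With 2 pls4 libraries the deviations of 1 mirror those of the other. These correlations therefore cannot show whether same-numbered libraries were paired. The libraries were treated as sharing only a number.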
